A study of Xenopus tropicalis with 12 samples.

Results

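The genes described here are those encoded on the mitochondrial genome of Xenopus tropicalis, measured in tadpole hind limb with and without thyroid hormone (T3) and with and without thyroid hormone receptor α (TRα). They were chosen by position alone, as every gene that the count table places on the mitochondrial sequence, which gave 37 genes of 19921 in the table. The rule itself uses no measured value, although it was set with earlier results of these data known.

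The vertebrate mitochondrial genome is a small circle that encodes core subunits of the respiratory chain complexes and of ATP synthase, together with ribosomal and transfer RNAs used to translate them inside the organelle. Its strands are transcribed as long RNAs that span many genes and are then cut into individual transcripts, so the steady level of each transcript depends on cutting, polyadenylation and decay as well as on transcription. The growing limb is a tissue of dividing mesenchyme, cartilage and muscle precursors, and thyroid hormone is known to raise mitochondrial activity in many vertebrate tissues.

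Hind limb RNA was sequenced in 4 groups, which were wild type (WT) and TRα (-/-) tadpoles, each left untreated or given T3 (10 nM, 18 h), at stages 52 to 54 per the labels, and the groups are called untreated and treated below. The animals of both genotypes came from the same parents, all 4 groups still carried the TRβ gene, and the mutation was present in every cell of the TRα (-/-) animals rather than in the limb alone. Each group was a single pool of RNA merged from several tadpoles and was made into 3 libraries, so every p-value below measures the difference between pools against the noise between libraries of a pool, and variation between tadpoles was not measured. RNA was selected for poly-A tails, and whether reads were counted by strand is not stated.

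Total counts per library ran from 32649742 to 52430305, and the 37 mitochondrial genes took from 529898 to 1366741 of them. Levels are given as CPM, counts brought to a common library total with TMM, a method that sets library sizes so that most genes show no change, and levels of different genes were compared only after division by gene length (CPM per kb). The TMM factors were 1.32 to 1.35 in the 3 libraries of treated WT and 0.854 to 0.956 in the other 9 libraries. This scaling bears on every T3 comparison in WT. With libraries scaled by total counts alone, the median over all 14320 tested genes moved from -0.05 to 0.49 (log2) for T3 in WT and from -0.01 to -0.51 for TRα (-/-) over WT with T3, and values under that scaling are given below where they turn a direction. The transcript of the deleted receptor and marker genes of the hind limb were not checked in these libraries because nuclear gene identifiers were not matched to names.

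The 37 genes lie between positions 1 and 15566 of the mitochondrial sequence of the assembly used by the authors, 29 on the plus strand and 8 on the minus strand. Of the 36 pairs of neighbours along the sequence, 26 follow each other without a gap and 5 overlap. The 13 genes with a symbol encode proteins. They are ND1 (positions 2792 to 3759), ND2 (3969 to 5004), ND3 (9569 to 9911), ND4L (9981 to 10277), ND4 (10271 to 11648), ND5 (11859 to 13676) and ND6 (13668 to 14186) of complex I, the NADH dehydrogenase, then CYTB (14258 to 15399) of complex III, COX1 (5395 to 6951), COX2 (7111 to 7798) and COX3 (8715 to 9498) of complex IV, the cytochrome c oxidase, and ATP8 (7874 to 8041) and ATP6 (8032 to 8714) of ATP synthase. ND6 is the only protein-coding gene on the minus strand, and its end overlaps ND5 by 9 bases on the opposite strand. ATP8 overlaps ATP6 by 10 bases and ND4L overlaps ND4 by 7 bases on the same strand, so reads over the overlap do not belong to 1 gene alone. How such reads were counted is not stated, and whether each pair is carried on 1 RNA was not tested. The remaining 24 genes carry an identifier only. Of these, 2 are long, a 943-bp gene (ENSXETG00000034357, positions 69 to 1011) and a 1635-bp gene (ENSXETG00000034359, positions 1082 to 2716), and 22 are 66 to 75 bp long.

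The mitochondrial transcripts differed widely in level per length. Averaged over the 12 libraries, COX3 stood at 6437 CPM per kb, COX2 at 5682, COX1 at 3499 and the 1635-bp gene at 1820, followed by ATP6 at 1367, CYTB at 1235, ATP8 at 927, ND1 at 792, ND3 at 721, ND2 at 547, ND4 at 426, ND4L at 254, ND5 at 194 and the 943-bp gene at 114. The minus-strand gene ND6 was far lower, at 8.51 CPM per kb, which put the highest and the lowest of the 14 genes longer than 200 bp 756-fold apart. RNA was selected for poly-A tails, so these levels and the shares below also depend on how well each RNA was captured. That capture was not measured. The short genes were scarce. ENSXETG00000034392, at the end of the annotated sequence, had 74.98 CPM per kb and ENSXETG00000034362, next to ND1, had 41.6, and the 14 short genes left out of the tests by the filter on low counts had at most 9 counts in any library, including 1 gene (ENSXETG00000034356) with no count at all. The filter kept 23 of the 37 genes, which were the 14 genes longer than 200 bp, ATP8 and 8 short genes. A short gene could pass it through the group where it was highest, so counts over the tested genes do not stand for all 37.

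**Figure D1:**
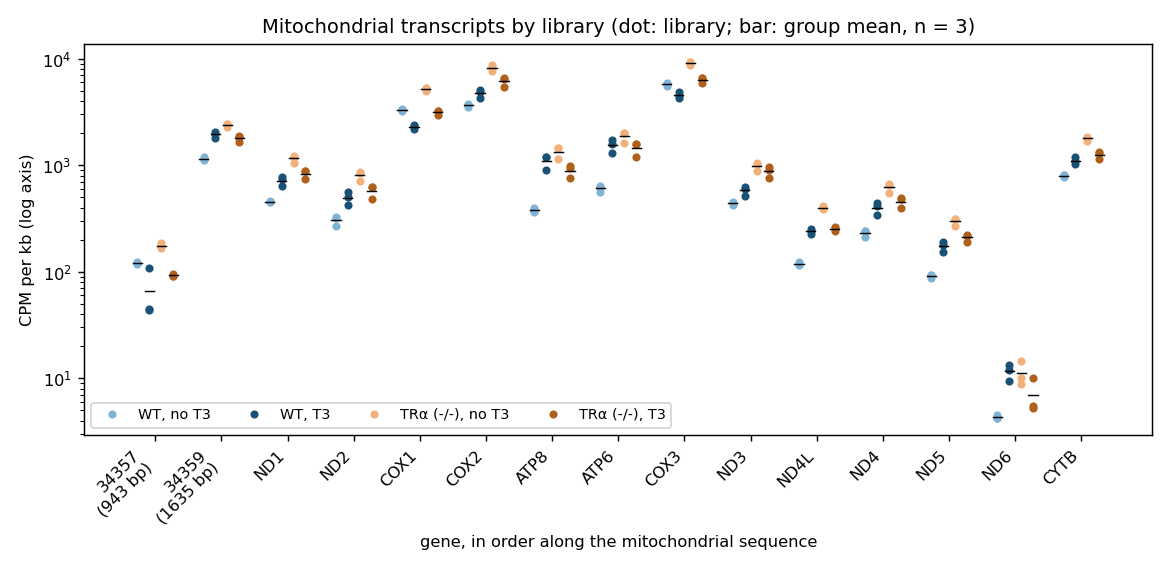
Level of each protein-coding mitochondrial gene and of the 2 long genes without a symbol, in CPM per kb on a log axis, ordered along the mitochondrial sequence, with a dot for each library and a bar for the mean of the 3 libraries of a group. COX1, COX2 and COX3 stand highest in all 4 groups, ND6 lowest, and the libraries of untreated TRα (-/-) lie above those of untreated WT for every gene shown.

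The comparison of TRα (-/-) with WT in the absence of T3 asked how the unliganded receptor affects these transcripts. In this comparison 16 of the 23 tested mitochondrial genes were at least 2-fold higher in TRα (-/-) at an adjusted p under 0.05 and 0 were lower (edgeR quasi-likelihood test, Benjamini-Hochberg over all genes), where 13% of all tested genes were higher and 7.35% lower by the same rule. The genes that rose were 11 of the 13 protein-coding genes, the 1635-bp gene and 4 short genes. Because a short gene could pass the filter through the group where it was highest, a stricter filter was also used. With 10 counts required in every library, 14 of 17 tested genes were higher and 0 lower. At an unadjusted p under 0.05, 20 of the 23 were higher and 0 lower (39.6% and 38.8% of all tested genes), and DESeq2 gave 16 higher and 0 lower. The shares of all genes called under the stricter filter and by DESeq2 were not computed, here or below. Those counts therefore stand without a background. The libraries of the groups did not overlap for 21 of the 23 genes, all higher in TRα (-/-), against 39.2% of all tested genes that were higher and 38.7% that were lower in this way. The median log2 change was 1.35 over the 23 genes, 1.26 over the 14 long genes and 0.01 over all tested genes. The spread between pools was not measured, and with the libraries of each pool summed and a relative spread (BCV) of 0.4 assumed between pools, edgeR called 0 of the 23 genes in this and in every other comparison on the TMM scale.

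Among the genes of ATP synthase, ATP8, a small subunit of its membrane part, had 62.3, 66.8 and 61.5 CPM in the 3 libraries of untreated WT and 243, 243 and 192 CPM in those of untreated TRα (-/-). ATP6, the subunit that forms the proton path with the rotating ring, had 428, 434 and 379 CPM in WT and 1359, 1366 and 1115 CPM in TRα (-/-). The libraries of the genotypes lay far apart for both genes. ATP8 was 3.56-fold higher by group means, with a log2 change of 1.83 ± 0.10 (SE, edgeR adjusted p = 2.91e-15), and ATP6 was 3.09-fold higher, with 1.63 ± 0.09 (edgeR adjusted p = 1.38e-14).

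All 7 complex I genes were among the 11 protein-coding genes called higher, where 13% of all tested genes were called higher. ND4L, a small membrane subunit, had 36.5, 35.4 and 34.2 CPM in untreated WT and 119, 123 and 115 CPM in TRα (-/-), a 3.37-fold difference in means and a log2 change of 1.75 ± 0.05 (edgeR adjusted p = 2.25e-21). ND5, a large membrane subunit and part of the proton pump, had 171, 170 and 160 CPM in WT and 575, 569 and 489 CPM in TRα (-/-), with a log2 change of 1.70 ± 0.07 (edgeR adjusted p = 5.34e-18). Every library of TRα (-/-) was above every library of WT for these genes. ND1, which helps to form the quinone site, had 436, 451 and 436 CPM in WT and 1188, 1164 and 1018 CPM in TRα (-/-), with a log2 change of 1.35 ± 0.06. ND2, a pump subunit related to ND4 and ND5, had 329, 336 and 281 CPM in WT and 883, 901 and 731 CPM in TRα (-/-) (1.41 ± 0.09). ND4 had 334, 334 and 289 CPM in WT and 910, 902 and 749 CPM in TRα (-/-) (1.42 ± 0.08). These 3 genes changed to a similar degree, and their libraries did not overlap. The small subunit ND3 had 155, 146 and 151 CPM in WT and 356, 360 and 303 CPM in TRα (-/-) (1.17 ± 0.07). ND6, annotated on the other strand, had 2.22, 2.36 and 2.22 CPM in WT and 5.23, 4.62 and 7.49 CPM in TRα (-/-), with a log2 change of 1.36 ± 0.21 (edgeR adjusted p = 2.19e-06). Because counting by strand is not stated, its counts here and below may include RNA of the plus strand. ND6 had only 70 to 87 counts in a library of WT and 146 to 263 in one of TRα (-/-), so it is the least precise of the protein-coding genes.

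CYTB and COX2 also passed 2-fold, by about as much as ND3. CYTB, the catalytic core of complex III, had 915, 929 and 877 CPM in untreated WT and 2073, 2119 and 1922 CPM in TRα (-/-), a 2.25-fold difference with a log2 change of 1.17 ± 0.05 (edgeR adjusted p = 4.97e-17). COX2, which takes electrons from cytochrome c, had 2523, 2591 and 2424 CPM in WT and 5971, 5748 and 5233 CPM in TRα (-/-), with a log2 change of 1.17 ± 0.06 (edgeR adjusted p = 6.01e-16). COX1, the catalytic subunit with the oxygen-binding site, had 5056, 5145 and 5260 CPM in WT and 8345, 8273 and 7812 CPM in TRα (-/-). COX1 and COX3 were the 2 protein-coding genes that did not reach 2-fold, at 1.58-fold and 1.59-fold by means (log2 changes 0.66 ± 0.04 and 0.67 ± 0.04), although their libraries did not overlap either. COX3, a core subunit without redox centres, had 4349, 4503 and 4620 CPM in WT and 7335, 7277 and 6845 CPM in TRα (-/-).

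The 2 long genes without a symbol differed from each other. The 1635-bp gene had 1864, 1939 and 1840 CPM in untreated WT and 3985, 4000 and 3745 CPM in TRα (-/-), 2.08-fold apart by means, with a log2 change of 1.06 ± 0.04 (edgeR adjusted p = 1.09e-17). With libraries scaled by total counts its log2 change was 0.97, just under the 2-fold threshold. The 943-bp gene had 117, 111 and 113 CPM in WT and 158, 165 and 174 CPM in TRα (-/-), a log2 change of 0.54 ± 0.18, which did not reach 2-fold. Its libraries did not overlap between the genotypes.

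In bulk RNA of a pool, more cells rich in mitochondria, more mitochondrial RNA per cell and less nuclear-encoded RNA per cell cannot be told apart.

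The next comparison was between WT with and without T3 and asked how the hormone affects these transcripts when both receptors are present. T3 raised 6 of the 23 tested genes and lowered 2 at 2-fold, where 22.8% of all tested genes were higher and 25.1% lower by the same rule, so the number that rose was near the background and the number that fell below it. The 6 genes that rose were ATP8, ATP6, ND6 and ND4L and the short genes ENSXETG00000034360 and ENSXETG00000034363, and the 2 that fell were short genes with few counts. With 10 counts required in every library, these short genes were not tested, and 4 of 17 tested genes were higher and 0 lower. The median log2 change was 0.65 over the 23 genes and 0.68 over the 14 long genes, against -0.05 over all tested genes. The treated libraries lay wholly above the untreated ones for 16 of the 23 genes and wholly below for 5 (43.2% and 46.1% of all tested genes). With libraries scaled by total counts, 14 genes were called higher and 0 lower, and the median of the 14 long genes was 1.22 against 0.49 for all tested genes. This scaling shifts all genes upward alike. The share of all tested genes called under it was not computed, so the count of 14 has no background.

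ATP8 had 199, 201 and 152 CPM in the 3 libraries of treated WT, against 61.5 to 66.8 CPM without, and ATP6 had 1076, 1182 and 888 CPM, against 379 to 434. Both genes stood above every untreated WT library. ATP8 rose 2.90-fold by means (log2 change 1.54 ± 0.09, edgeR adjusted p = 3.57e-14) and ATP6 rose 2.53-fold (1.34 ± 0.09, edgeR adjusted p = 2.71e-13). ND6 had 6.22, 6.97 and 4.90 CPM with T3 and rose with a log2 change of 1.42 ± 0.20 (edgeR adjusted p = 2.16e-07). ND4L had 71.1, 75.5 and 67.5 CPM with T3, 2.02-fold the untreated mean, and its log2 change of 1.02 ± 0.05 was close to the threshold (edgeR adjusted p = 4.92e-17). Leaving out untreated WT replicate 3 or treated WT replicate 2 put ND4L under 2-fold, at 0.98 at the lowest.

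The other complex I genes were higher with T3 but below 2-fold. ND5 had 327, 347 and 281 CPM with T3 (log2 change 0.93 ± 0.07, and 1.02 without replicate 3 of treated WT), ND4 had 568, 607 and 471 CPM (0.78 ± 0.08), ND2 had 525, 577 and 438 CPM (0.71 ± 0.09), ND1 had 722, 748 and 614 CPM (0.65 ± 0.06) and ND3 had 206, 215 and 175 CPM (0.40 ± 0.07). None of their treated libraries overlapped the untreated ones. CYTB, at 1254, 1363 and 1163 CPM, had a log2 change of 0.47 ± 0.05 and the 1635-bp gene, at 3239, 3348 and 2947 CPM, had 0.76 ± 0.04.

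Complex IV did not move as a block. COX2 was higher with T3, at 3319, 3482 and 2947 CPM (log2 change 0.37 ± 0.06). COX1 was lower, at 3662, 3684 and 3377 CPM with T3 against 5056 to 5260 CPM without, with a log2 change of -0.53 ± 0.04 (edgeR adjusted p = 2.19e-13), but with total-count scaling it was 0.01 and the sign turned. COX3 was likewise lower, at 3509, 3848 and 3329 CPM with T3 against 4349 to 4620 CPM without (-0.33 ± 0.04, edgeR adjusted p = 7.53e-08), and it too turned, to 0.20, under total counts. That COX1 and COX3 stood below the other protein-coding genes does not depend on the scaling, which shifts all genes alike. COX2 lay below COX3 per length in untreated WT (3652 against 5728 CPM per kb). With T3 it was slightly above COX3 within each library (4824 against 4475, 5061 against 4908 and 4283 against 4246 CPM per kb). The ranges over libraries overlapped (4723 ± 399 against 4543 ± 336 CPM per kb, mean ± SD, n = 3), and this order was not tested.

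The 943-bp gene had 42.0, 103 and 41.3 CPM in treated WT, so that replicate 2 stood apart from the other libraries of its pool. All 3 libraries were below the untreated range of 111 to 117 CPM. Its log2 change was -0.86 ± 0.19 (edgeR adjusted p = 0.000147) and reached -1.44 without replicate 2 of treated WT.

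In TRα (-/-), the comparison with and without T3 asked how much of the response remains without the receptor. T3 raised 0 and lowered 2 of the 23 tested genes at 2-fold, where 7.14% of all tested genes were higher and 9.64% lower. The 2 lowered genes were short genes with few counts. With 10 counts required in every library, 0 of 17 tested genes were called. At an unadjusted p under 0.05, 0 were higher and 19 lower (37.8% and 38.8% of all tested genes), and DESeq2 gave 0 higher and 2 lower. All 14 long genes had log2 changes below 0, from -0.92 to -0.18 with a median of -0.49, against a median of -0.02 over all tested genes. The treated libraries lay wholly below the untreated ones for 16 of the 23 genes, 12 of them long, and wholly above for 1, where 38% and 37.2% of all tested genes did so.

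COX1 had 5077, 5063 and 4615 CPM in the 3 libraries of treated TRα (-/-) against 8345, 8273 and 7812 CPM without, a log2 change of -0.73 ± 0.04 (edgeR adjusted p = 8.49e-16). COX3 had 5177, 5167 and 4606 CPM with T3 (-0.52 ± 0.04) and COX2 had 4405, 4521 and 3743 CPM (-0.42 ± 0.06). All 3 complex IV genes were therefore lower with T3, and their libraries did not overlap. CYTB, at 1499, 1504 and 1307 CPM, had a log2 change of -0.50 ± 0.05.

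The ATP synthase genes, which had the highest T3 changes of the plus-strand protein-coding genes in WT, were lower with T3 in TRα (-/-). ATP8 had 159, 164 and 127 CPM with T3 (log2 change -0.59 ± 0.09) and ATP6 had 1087, 1073 and 818 CPM (-0.37 ± 0.09). Among complex I genes, ND4L had 78.3, 72.2 and 76.2 CPM with T3 (-0.66 ± 0.04), ND5 had 397, 404 and 346 CPM (-0.51 ± 0.06), ND2 had 646, 653 and 497 CPM (-0.49 ± 0.09), ND1 had 852, 851 and 715 CPM (-0.48 ± 0.06) and ND4 had 672, 665 and 543 CPM (-0.45 ± 0.08). These libraries lay below those without T3 for each gene named.

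ND3 and ND6 were the long genes whose libraries with and without T3 overlapped in TRα (-/-). ND3 had 327, 310 and 261 CPM with T3 against 356, 360 and 303 without (log2 change -0.18 ± 0.07). ND6 had 5.19, 2.86 and 2.72 CPM with T3 (-0.68 ± 0.19), and without replicate 1 of treated TRα (-/-) its log2 change was -1.06 and passed the 2-fold rule. The 1635-bp gene had 3032, 3055 and 2717 CPM with T3 (-0.41 ± 0.04). The 943-bp gene had 90.0, 85.4 and 86.0 CPM with T3, the largest drop among the long genes (-0.92 ± 0.19), and its libraries agreed closely in this group.

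**Figure D2:**
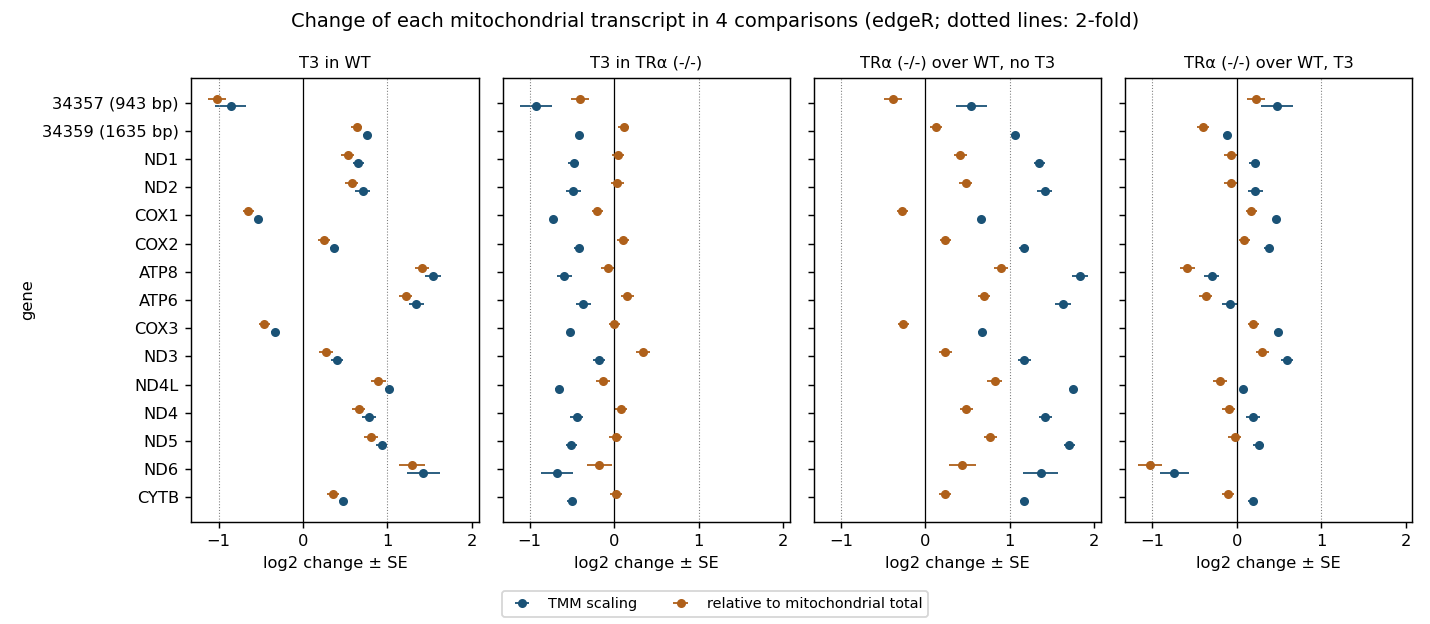
Log2 change (edgeR, ± SE) of each protein-coding mitochondrial gene and of the 2 long genes without a symbol in 4 comparisons, with TMM scaling in blue and relative to the summed counts of the 37 mitochondrial genes in orange, and dotted lines at 2-fold. With TMM scaling every gene shown is above 0 for TRα (-/-) over WT without T3 and below 0 for T3 in TRα (-/-), while relative to the mitochondrial total the T3 changes in TRα (-/-) lie between -0.40 and 0.34.

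The difference between the T3 changes of the genotypes was tested by an interaction term, computed as the log2 change by T3 in TRα (-/-) less the one in WT. It was at least 2-fold below 0 for 11 of the 23 tested genes and above 0 for 1, where 16.6% of all tested genes were lower and 17.7% higher. The median was -0.98 over the 23 genes and 0.01 over all tested genes. The 11 genes were 8 protein-coding genes, the 1635-bp gene and 2 short genes. With 10 counts required in every library, these short genes were not tested, and 9 of 17 tested genes were called below 0 and 0 above. ATP8 had the largest interaction of the protein-coding genes (-2.13 ± 0.13, edgeR adjusted p = 9.88e-14), followed by ND6 (-2.10 ± 0.27), ATP6 (-1.71 ± 0.13), ND4L (-1.67 ± 0.06), ND5 (-1.44 ± 0.09), ND4 (-1.23 ± 0.11), ND2 (-1.19 ± 0.13) and ND1 (-1.13 ± 0.09). COX1 (-0.20 ± 0.05) and COX3 (-0.19 ± 0.06) had the smallest among protein-coding genes, and COX2 had -0.79 ± 0.08, ND3 -0.58 ± 0.10 and CYTB -0.98 ± 0.07. CYTB passed 2-fold under 7 of the alternatives tried, DESeq2 among them (-1.40 to -1.01). The 943-bp gene had -0.07 ± 0.26 with all libraries and 0.52 without replicate 2 of treated WT.

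With T3 present, the comparison of the genotypes called 2 of the 23 tested genes higher in TRα (-/-) and 0 lower, where 11.4% of all tested genes were higher and 3.77% lower. Both were short genes with few counts. At an unadjusted p under 0.05, 14 were higher and 4 lower (38.3% and 38.6% of all tested genes), and DESeq2 called 1 higher and 0 lower. The libraries of TRα (-/-) lay wholly above those of WT for 7 of the 23 genes and wholly below for 1 (38% and 38.3% of all tested genes). The direction of most genes in this comparison depends on the scaling. With TMM, 11 of the 14 long genes had log2 changes above 0 with a median of 0.22, whereas with total counts the median was -0.29 and 10 of those genes changed sign, among them ND4L (0.08 to -0.43), CYTB (0.19 to -0.32), ND4 (0.19 to -0.32) and ND1 (0.21 to -0.29). ND6 was below 0 under both, at -0.74 ± 0.17 with TMM (edgeR adjusted p = 0.000484) and -1.24 with total counts.

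A measure that does not depend on how nuclear genes are scaled is the share that each gene takes of all mitochondrial counts. In untreated WT, complex IV genes took 71.6% ± 0.892 of the mitochondrial counts (mean ± SD, n = 3), and in treated WT they took 56.2% ± 0.766. COX1 alone went from 30.4% ± 0.611 to 19.4% ± 0.700 and COX3 from 26.5% ± 0.728 to 19.3% ± 0.501. The shares that grew were those of the 1635-bp gene (11.1% ± 0.205 to 17.2% ± 0.269), complex I (8.43% ± 0.384 to 12.7% ± 0.486), complex V (2.81% ± 0.182 to 6.65% ± 0.442) and CYTB (5.34% ± 0.146 to 6.82% ± 0.110). For each of these sets the 3 treated libraries lay outside the range of the 3 untreated ones. Shares of the same total are bound together, so these rises and falls are not separate findings. COX1 and COX3 together took 56.8% in untreated WT and 38.7% in treated WT. From shares alone, a fall of this pair and a rise of the other genes cannot be told apart.

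In TRα (-/-) the mean shares of these same sets lay between those of WT without and with T3 and moved less with the hormone. Single genes could differ. COX2 took 17.4% without T3 and 18.7% with T3 in TRα (-/-), against 14.8% and 17.6% in WT. ND3 took 1.05% and 1.33%, against 0.888% and 1.07% in WT, so both left the WT range in treated TRα (-/-). Complex IV took 64.7% ± 0.600 without T3 and 62.7% ± 0.531 with T3, complex I 11.8% ± 0.506 and 12.37% ± 0.395, complex V 4.64% ± 0.300 and 5.05% ± 0.378, CYTB 6.29% ± 0.0963 and 6.38% ± 0.00729, and the 1635-bp gene 12.1% ± 0.205 and 13.04% ± 0.206. The libraries with and without T3 overlapped for complex I, complex V and CYTB and were apart for complex IV and the 1635-bp gene. The make-up was not tested as a whole.

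**Figure D3:**
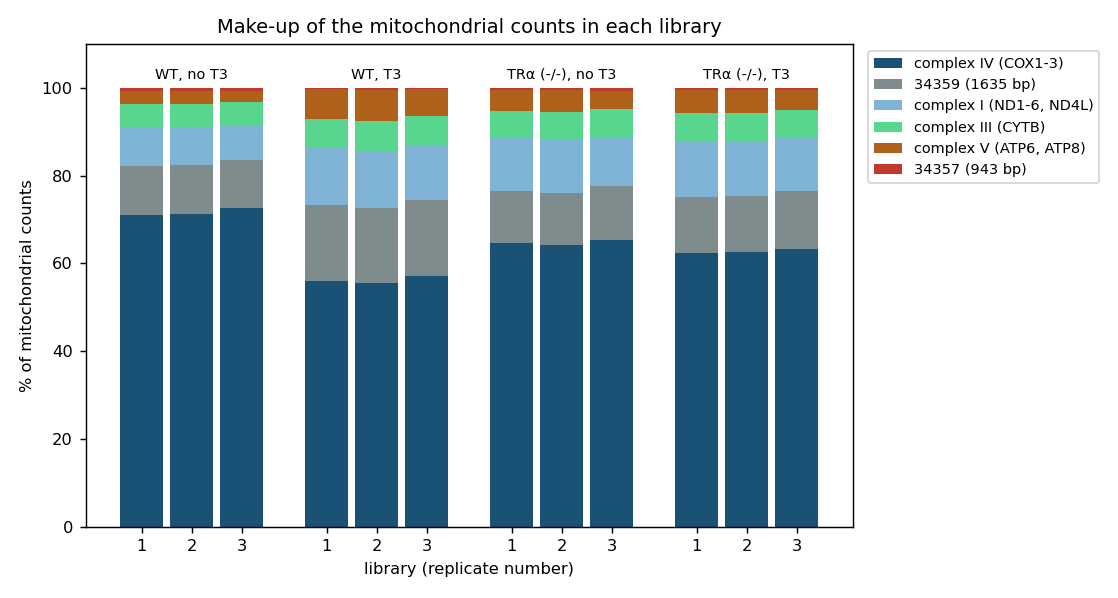
Make-up of the mitochondrial counts in each of the 12 libraries, as the percent of mitochondrial counts taken by the genes of each respiratory complex and by the 2 long genes without a symbol, with bars stacked from 0. Complex IV takes 71.1 to 72.7% in untreated WT, 55.6 to 57.1% in treated WT, 64.1 to 65.3% in untreated TRα (-/-) and 62.3 to 63.3% in treated TRα (-/-).

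Tested gene by gene relative to the mitochondrial total (edgeR with the summed mitochondrial counts as library size), T3 in WT raised 5 genes and lowered 4 at 2-fold, where 20.6% of all tested genes were higher and 27.9% lower on this scale. Compared with TMM, this scale shifts all genes alike by the change of the mitochondrial total. The median log2 change over all tested genes was -0.17 in this comparison and -0.91 between the untreated genotypes. The shares of all tested genes on this scale follow that shift, so they are not a background for the counts of mitochondrial genes. The 5 raised genes were ATP8 (log2 change 1.41 ± 0.09), ND6 (1.29 ± 0.15), ATP6 (1.21 ± 0.08) and 2 short genes, and the 4 lowered ones were the 943-bp gene (-1.02 ± 0.11) and 3 short genes. The 943-bp gene (ENSXETG00000034357) lost this call without replicate 1 of untreated WT (-0.99), replicate 1 (-0.80) or 3 (-0.84) of treated WT or replicate 3 in every group (-0.84), and stood at -1.51 without replicate 2 of treated WT. ENSXETG00000034364 went from -1.75 to -0.23 without replicate 1 of untreated WT, which left 1 gene lower, and ENSXETG00000034363 fell short of 2-fold under 4 alternatives (0.81 to 0.97). Without replicate 3 in every group 4 genes were higher and 2 lower. COX1 (-0.65 ± 0.07) and COX3 (-0.46 ± 0.07) had values below 0 within 2-fold. The genotype comparison without T3, which was wide on the TMM scale, left 1 gene higher and 0 lower at 2-fold on this scale (3.84% and 45.3% of all tested genes), with 14 higher and 3 lower at an unadjusted p under 0.05 (8.9% and 77.2%). The gene was ENSXETG00000034360 (1.41 ± 0.49). Without replicate 3 in every group it lost the call (1.13) and ENSXETG00000034364 was called lower (-1.28), as it also was without replicate 3 of untreated WT alone (-1.20). ATP8 (0.89 ± 0.09), ND4L (0.82 ± 0.09), ND5 (0.77 ± 0.08) and ATP6 (0.69 ± 0.08) were the protein-coding genes with the highest values, and COX1 (-0.27 ± 0.07) and COX3 (-0.26 ± 0.07) those with values below 0.

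On the same relative scale T3 in TRα (-/-) raised 0 genes and lowered 1, a short gene with few counts (22.2% and 3.61% of all tested genes), with 5 higher and 3 lower at an unadjusted p under 0.05 (63.6% and 13.4%). The protein-coding genes spanned -0.20 (COX1) to 0.34 (ND3). With T3 present, TRα (-/-) over WT had 1 gene higher and 1 lower (7.72% and 9.44% of all tested genes), and the lower gene was ND6 (-1.02 ± 0.14, edgeR adjusted p = 1.04e-10), which was short of 2-fold under 4 of the alternatives tried (-0.98 to -0.85), leaving out replicate 2 of treated WT among them. The median over all tested genes was 0.50 for the T3 change in TRα (-/-), -0.29 for the treated genotypes and 0.65 for the interaction. The shares of all tested genes given in brackets follow the shift of the scale here too. The interaction was called for 6 genes below 0 and 1 above (7.58% and 35.8% of all tested genes). Those below were ATP8 (-1.48 ± 0.12), ND6 (-1.46 ± 0.21), ATP6 (-1.06 ± 0.11), ND4L (-1.02 ± 0.12) and 2 short genes. COX1 (0.45 ± 0.09) and COX3 (0.46 ± 0.09) had values above 0.

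The summed share of the 37 genes in all counts gives the same comparisons as a single value per library. It was 1.55%, 1.58% and 1.55% in untreated WT, 2.53%, 2.61% and 2.27% in treated WT, 2.93%, 2.86% and 2.602% in untreated TRα (-/-) and 2.18%, 2.22% and 1.96% in treated TRα (-/-). No groups compared overlapped, and each comparison gave p = 0.1 in a two-sided exact permutation test, the smallest value that 3 libraries against 3 can give (0.1 after adjustment over the 4 comparisons). Divided by TMM-scaled totals instead, the libraries of treated WT (1.87%, 1.98% and 1.69%) overlapped those without (1.68%, 1.72% and 1.69%; exact p = 0.3), and the difference of treated TRα (-/-) from treated WT went from -0.351 to 0.405 percentage points. Leaving the 500 most abundant nuclear genes out of the total gave the same turn, to 1.30 percentage points. Under all of these totals the share was higher in untreated TRα (-/-) than in untreated WT and lower in treated than in untreated TRα (-/-).

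**Figure D4:**
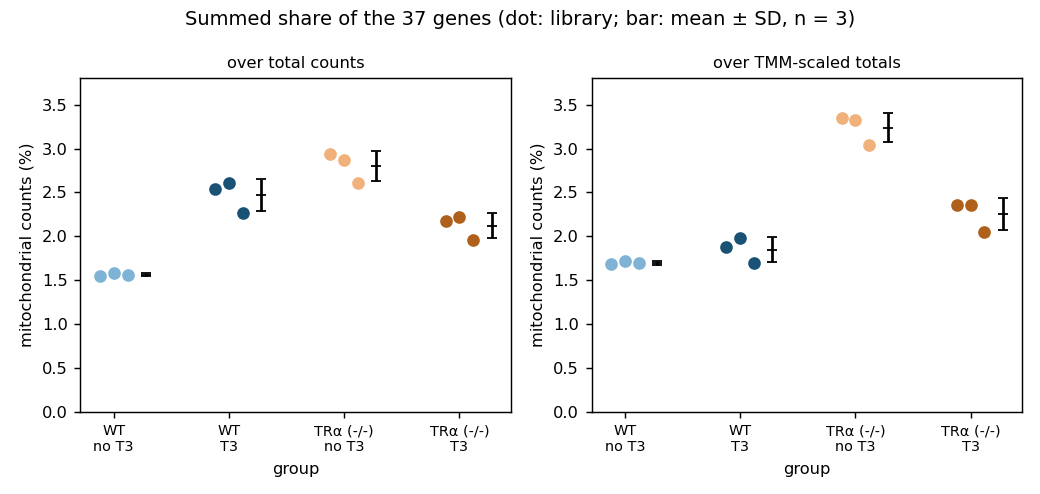
Summed share of the 37 mitochondrial genes in each library, as a percent of total counts on the left and of TMM-scaled totals on the right, with a dot for each library and a bar for mean ± SD (n = 3). On the left treated WT (2.27 to 2.61%) lies above untreated WT (1.55 to 1.58%), and on the right these groups overlap, while untreated TRα (-/-) is highest in both panels.

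The 22 short genes together took 0.0346% ± 0.00187 of mitochondrial counts in untreated WT, 0.0466% ± 0.00384 in treated WT, 0.0424% ± 0.00344 in untreated TRα (-/-) and 0.0596% ± 0.00370 in treated TRα (-/-). These genes are far shorter than the fragments a standard mRNA library holds, and what these few counts come from was not tested. ENSXETG00000034392 (positions 15500 to 15566) had 2.22, 2.48 and 2.96 CPM in untreated WT, 4.70, 3.91 and 3.62 CPM in treated WT, 6.35, 7.50 and 6.12 CPM in untreated TRα (-/-) and 7.12, 6.89 and 6.41 CPM in treated TRα (-/-). It rose without TRα (log2 change 1.36 ± 0.12, edgeR adjusted p = 1.94e-10) and had 0.04 ± 0.10 for T3 in TRα (-/-), where the long genes were below 0. ENSXETG00000034362 (positions 3760 to 3830) had 1.62, 1.69 and 1.99 CPM in untreated WT, 2.62, 2.42 and 2.41 CPM in treated WT, 3.42, 3.74 and 3.42 CPM in untreated TRα (-/-) and 4.25, 4.08 and 3.81 CPM in treated TRα (-/-), with 0.98 ± 0.13 for genotype without T3. Relative to the mitochondrial total, T3 in TRα (-/-) gave 0.56 ± 0.12 for the former and 0.72 ± 0.14 for the latter.

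The other short genes that were called rest on few counts. ENSXETG00000034360, which lies between the 1635-bp gene and ND1 (positions 2717 to 2791), had 3, 4 and 3 counts in untreated WT, 18, 38 and 23 in treated WT, 10, 20 and 19 in untreated TRα (-/-) and 14, 9 and 9 in treated TRα (-/-). Its log2 change by T3 in WT was 2.22 ± 0.40 and its interaction -3.03 ± 0.53. With 3 or 4 counts in untreated WT, ENSXETG00000034360 could pass the filter on low counts only through other groups, where it was higher. Its calls are therefore no support for a rise in those groups. ENSXETG00000034363, on the minus strand (positions 3830 to 3900), had 8, 7 and 7 counts in untreated WT, 25, 34 and 22 in treated WT, 20, 23 and 30 in untreated TRα (-/-) and 22, 23 and 10 in treated TRα (-/-), and its interaction was -1.76 ± 0.41. The same limit holds for its calls, with 7 or 8 counts in untreated WT. ENSXETG00000034364 (positions 3900 to 3968) had 16, 3 and 2 counts in untreated WT, 1, 4 and 6 in treated WT, 6, 9 and 9 in untreated TRα (-/-) and 15, 10 and 11 in treated TRα (-/-). A single library held most of its counts in untreated WT, and its log2 change by T3 in WT of -1.61 was -0.11 without that library, replicate 1, and its interaction of 1.99 ± 0.83 was 0.49. In all, 5 alternatives ended the first of these calls and 8 the other. The genes ENSXETG00000034372 and ENSXETG00000034379, with at most 20 counts in a library, were the 2 called lower for T3 in TRα (-/-), ENSXETG00000034379 and ENSXETG00000034364 were the 2 called lower for T3 in WT, and ENSXETG00000034364 and ENSXETG00000034367 were the 2 called higher for genotype with T3. None of these 6 genes was tested when 10 counts were required in every library. In TRα (-/-), ENSXETG00000034372 had 14 to 20 counts untreated and 3 to 11 treated, and ENSXETG00000034379 had 9 to 16 and 4 to 6. Like the genes above, ENSXETG00000034364, ENSXETG00000034367, ENSXETG00000034372 and ENSXETG00000034379 could pass the filter through groups where they were higher. Their calls are therefore no support for a difference.

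The libraries numbered 3 tended to lie lowest for these genes. Of the 23 tested genes, 8 had their lowest CPM of the group in replicate 3 in all 4 groups, 7 of them long, against 2.79% of all tested genes, and 0 had their highest there in all 4, against 2.22%. The genes were the 1635-bp gene, ND2, COX2, ATP8, ATP6, ND4, ND5 and CYTB. Leaving out replicate 3 in every group, an alternative chosen after seeing the data, gave 17 called genes for TRα (-/-) over WT without T3 (16 with all libraries) and the counts given above, 8, 2, 2 and 12, in the other comparisons.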

How the data were processed

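The authors purified poly-A RNA, aligned reads to the JGI X. tropicalis assembly from Ensembl and counted them per gene. The processing notes name STAR 2.5.3a and featureCounts 1.4.6-p3, while other versions appear in the methods of the study. The authors deposited unnormalized counts for each gene beside its coordinates, strand and length in bp (other unit). Strand and multi-mapping settings are not given in the sources used here.

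Genes on the mitochondrial sequence were taken from the chromosome column. Symbols were given to 13 genes whose start, end and length were identical to one of the 13 mitochondrial entries of a RefSeq table (assembly UCB_Xtro_10.0). The other 24 are given by identifier. No entry of that table carries an Ensembl identifier (0 of 28858), so nuclear genes of mitochondrial function, limb markers and the receptor gene were not analysed here. No genome or sequence table was used, and no sequences are printed.

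edgeR 4.0.16 in R 4.3.3 (filterByExpr, TMM, glmQLFit, glmQLFTest) was fitted over all 12 libraries with 1 mean per group, and 14320 genes were tested. Calls required an adjusted p (Benjamini-Hochberg) under 0.05 together with at least a 2-fold change. SE is the absolute log2 change divided by the square root of F. A second fit replaced the library sizes by the summed mitochondrial counts. Any of the 37 genes could be named. Values in every library were given for genes longer than 200 bp, for the 3 shorter ones with the highest CPM per kb and for shorter ones called in the interaction. The members and lists were chosen with earlier results of these data known. Shares were compared by exact permutation tests (scipy 1.17.1). Alternatives were DESeq2 1.42.0, other scalings, filters and thresholds, a replicate block, an assumed spread between pools (BCV, the relative spread beyond counting noise; 0.0421 between libraries in the fit) and leaving out each library.

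Tested on simulated data for 13945 genes with 200 changed, the fit for T3 in WT recovered 200 with 1 false call. The changed genes were all abundant nuclear genes, and no spread between pools was simulated. This check therefore does not cover calls of scarce genes or differences between pools. Libraries of a pool differed by more than sampling noise (chi-square per degree of freedom 1.88 to 11), and all were kept as separate libraries. The values of 11 and 10.6 were those of replicate 2 of treated WT against the other libraries of its pool. No other pair exceeded 6.3.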

Additional observations from a re-analysis of the deposited data

Results flagged for a closer look

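The T3 change differed between the genotypes, by the edgeR interaction test at adjusted p under 0.05 and 2-fold, for 12 genes. The log2 interaction (the change by T3 in TRα (-/-) less the one in WT) was -2.13 for ATP8, -2.10 for ND6, -1.71 for ATP6, -1.67 for ND4L, -1.44 for ND5, -1.23 for ND4, -1.19 for ND2, -1.13 for ND1 and -1.17 for the 1635-bp gene ENSXETG00000034359. Among the short genes it was -3.03 for ENSXETG00000034360, -1.76 for ENSXETG00000034363 and 1.99 for ENSXETG00000034364. The first of these had at most 4 counts in a library of untreated WT and ENSXETG00000034363 at most 8. Both could pass the filter on low counts only through other groups, where they were higher. Their calls are therefore no support for a difference.

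Relative to the mitochondrial total, the same test called ATP8 (-1.48), ND6 (-1.46), ATP6 (-1.06), ND4L (-1.02), ENSXETG00000034360 (-2.39), ENSXETG00000034363 (-1.12) and ENSXETG00000034364 (2.64). The calls of ENSXETG00000034360 and ENSXETG00000034363 carry the same limit from the filter. ND4L, ATP6 and ENSXETG00000034363 lost this call when COX1, the gene with the most counts, was left out of the total. Over all alternatives that ended the call, the values nearest to 0 were -0.87, -0.91 and -0.70. ENSXETG00000034364 lost it without replicate 1 of untreated WT, at 1.12, and on the TMM scale its interaction was 0.49 without that library.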

How the results depend on the processing

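The 5 comparisons are T3 in WT (8 called genes), T3 in TRα (-/-) (2), the genotypes untreated (16), the genotypes treated (2) and the interaction (12), in this order throughout. Scaling by total counts gave 14 for T3 in WT and turned COX1 (0.012) and COX3 (0.20) there. For the treated genotypes it turned the 943-bp gene ENSXETG00000034357 (-0.025), ND1 (-0.29), ND2 (-0.29), COX1 (-0.047), COX2 (-0.13), COX3 (-0.023), ND4L (-0.43), ND4 (-0.32), ND5 (-0.24) and CYTB (-0.32). Requiring 10 counts in every library left 17 tested genes and gave 4, 0, 14, 0 and 9. Without the fold threshold the counts were 22, 19, 20, 18 and 18. An assumed BCV of 0.2 gave 0 for T3 in TRα (-/-), 1 for the treated genotypes and 5 for the interaction, and 0.4 gave 0 in all 5 comparisons. Fitting only the groups compared gave 1 for T3 in TRα (-/-) and 0 for the treated genotypes, and DESeq2 gave 1 for the latter. Leaving out each library gave 7 to 9, 1 to 3, 16 to 17, 1 to 3 and 11 to 13. The shares of all tested genes called under these alternatives were not computed, so these counts have no background.

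Relative to the mitochondrial total the counts were 9, 1, 1, 2 and 7. Without the fold threshold they were 22, 6, 17, 13 and 16, and with COX1 left out of the total 1 for the treated genotypes and 4 for the interaction. Leaving out each library gave 6 to 9, 0 to 1, 1 to 2, 1 to 3 and 5 to 8. The 943-bp gene (ENSXETG00000034357) turned to -0.012 for the treated genotypes without replicate 3 in every group, and its interaction on the TMM scale to 0.52 without replicate 2 of treated WT (-0.29 to 0.52 over all libraries left out). The summed share turned for the treated genotypes under TMM-scaled totals (0.405 percentage points) and without the 500 most abundant nuclear genes (1.30). Same-numbered libraries were not paired (3 of 18 pairs correlated over 0.1), and the replicate block gave 8, 2, 16, 2 and 12 calls, as without it. The short genes had low counts, and 14 of them were not tested.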

Other observations

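The counts per length of ATP8 over ATP6 and of ND4L over ND4 varied across the groups. This was not tested, and the ratios need not compare separate RNAs. Per length, ATP8 stood at 0.625 ± 0.0339 of ATP6 in untreated WT, 0.713 ± 0.0351 in treated WT, 0.717 ± 0.0135 in untreated TRα (-/-) and 0.615 ± 0.0190 in treated TRα (-/-) (mean ± SD, n = 3). ND4L stood at 0.516 ± 0.0292, 0.607 ± 0.0493, 0.651 ± 0.0542 and 0.565 ± 0.0768 of ND4 in the same order, with libraries of the treated and untreated TRα (-/-) groups that overlapped.

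ND6 stood at 0.0475 ± 0.00188 of ND5 per length in untreated WT and 0.0660 ± 0.00472 in treated WT, and at 0.0380 ± 0.0137 and 0.0327 ± 0.0114 in TRα (-/-) without and with T3. In TRα (-/-) its libraries were uneven, with 0.0536 in replicate 3 without T3 and 0.0458 in replicate 1 with T3 against 0.0248 to 0.0319 in the other 4. The 8 genes annotated on the minus strand together took 0.0180% ± 0.000599 of mitochondrial counts in untreated WT, 0.0382% ± 0.00276 in treated WT, 0.0239% ± 0.00574 in untreated TRα (-/-) and 0.0218% ± 0.00577 in treated TRα (-/-). ND6 alone took 0.0133%, 0.0325%, 0.0180% and 0.0158% in the same order, so these sums rest mostly on ND6. From which strand these counts come was not tested.

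The 943-bp gene took 0.224%, 0.521% and 0.244% of mitochondrial counts in the 3 libraries of treated WT, against 0.647 to 0.695% in untreated WT, 0.470 to 0.571% in untreated TRα (-/-) and 0.362 to 0.420% in treated TRα (-/-). These values are given without an explanation.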
